A study of Mus musculus with 6 samples.

Results

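The circadian clock genes examined here were *Arntl*, *Per1*, *Per2*, *Per3*, *Cry1*, *Cry2*, *Nr1d1*, *Nr1d2*, *Dbp* and *Tef*, 10 genes taken by symbol from a bead array measurement of neonatal mouse liver. The array carried 15 probes for them among 25697 probes in all. RNA came from the livers of 6 male pups at postnatal day 6 of the strain that the labels call FVB and the methods FVB/N, and the question was how the liver differs when the human sex-determining gene *SRY* is active in it. The 3 hSRY-ON pups carried the *Signalox-hSRY* transgene, inserted as a single copy at the *H11* locus of mouse chromosome 11, in its recombined form, in which the ubiquitous CAG promoter drives FLAG-tagged human *SRY* together with EGFP. Recombination was performed in the single-cell embryo by Cre protein carried over in oocytes of *Ddx4-Cre* mothers, and the hSRY-ON pups used for arrays did not themselves inherit *Ddx4-Cre*. The 3 hSRY-OFF pups were the controls, defined in the study's methods as mice with the same transgene before recombination, in which the CAG promoter drives DsRed2 and *SRY* is silent. The results of the same study name littermates without *Signalox-hSRY* as its controls, so whether the hSRY-OFF pups of the arrays carried the unrecombined transgene is not settled, and a difference given below may include the presence of the transgene as well as its activation. All groups shared strain, sex, age and tissue, and the whole study rests on a single transgene insertion. The sources used here do not state whether the groups of the arrays shared mothers or litters. Nor do they state whether any hSRY-OFF pup of the arrays carried *Ddx4-Cre*, so these may also differ between the groups. The paper reports that hSRY-ON pups hardly suckled, lacked milk in the stomach, grew slowly, developed fatty liver and died young. Feeding and growth thus go with the group, and their part in a difference cannot be told apart from that of *SRY*. The hour of dissection and the light schedule are not given in the sources used here, so every value below is a level at an unstated time of day.

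The mammalian clock is a feedback loop of transcription. BMAL1, the product of *Arntl*, pairs with CLOCK or NPAS2, binds E-boxes in DNA and activates the *Per* and *Cry* genes, whose proteins return to the nucleus and inhibit the activators. A further loop is formed by REV-ERB alpha and beta, the products of *Nr1d1* and *Nr1d2*, nuclear receptors that repress *Arntl* through ROR elements, where ROR receptors activate. DBP and TEF are transcription factors of the PAR bZIP family that bind D-boxes and carry the rhythm to output genes. In adult liver this loop times many metabolic genes and follows feeding. *Per1* is also known as a gene that glucocorticoid hormones and cAMP induce directly.

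Levels are normalized log2 intensities, obtained after each array's background was removed and the arrays were brought to the same distribution, so that a difference of 1 is a change of 2-fold. The median intensity before normalization was 147 to 165 per array, and the arrays detected 10318 to 10762 probes. A probe was taken as detected on an array when the deposited detection p-value was under 0.01, and was tested when at least 3 of the 6 arrays detected it, whichever group they belonged to. Differences are hSRY-ON minus hSRY-OFF, tested with limma, and a probe was called when its p-value, adjusted over all 10734 probes tested, was under 0.05. Group differences were widespread in this tissue: 3551 tested probes (33.1%) passed the threshold, 1700 of them higher in hSRY-ON (15.8%) and 1851 lower (17.2%). Without hSRY-OFF replicate 1 the counts were 898 and 1145, and without hSRY-OFF replicate 2 they were 975 and 1186. On the first principal component, which held 74.3% of the variance of the tested probes, the hSRY-OFF arrays lay between -40.9 and -36.2, hSRY-ON replicates 1 and 2 at 43.1 and 44.5, and hSRY-ON replicate 3 apart from them at 28.2.

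Hepatocyte markers, which define the labelled tissue, were detected on every array by all 6 of their probes. Their summed linear level was 62882 to 66848 in the hSRY-OFF livers and 50463 to 55134 in the hSRY-ON livers, with 4 of the 6 probes called lower (*Alb*, *Ttr* and both probes of *Serpina1a*) and none called higher. The neonatal liver also makes blood, and erythroid markers summed to 63170 to 80729 and 78953 to 91115, with 1 of 5 tested probes called higher. *Hba-a1* makes up much of these sums and was the brightest probe on all 6 arrays, so normalization set it to the same level on each and it could not be called. Without it the sums were 16932 to 34491 and 32715 to 44877. Neutrophil markers summed to 42781 to 49404 in hSRY-OFF, to 26837 and 31011 in hSRY-ON replicates 1 and 2 and to 79286 in hSRY-ON replicate 3, with no probe of 6 called. Macrophage markers summed to 3930 to 5091 and 2793 to 3754 (1 of 8 tested probes higher, 3 lower, *Cd5l* not detected), endothelial markers to 7763 to 9206 and 6438 to 8305 (3 of 5 higher, 1 lower, *Kdr* not detected), and stellate markers to 4752 to 5718 and 4888 to 6334 (1 of 6 higher, 1 lower). Biliary markers summed to 174 to 222 and 166 to 213, with no call at their 1 tested probe and *Krt19* and *Sox9* not detected on any array. Beside these counts, 33.1% of all tested probes were called, 15.8% higher and 17.2% lower. Endothelial sums tended lower while 3 of the 5 tested probes were higher, so that sum does not follow most of its probes. Of those 3, the *Lyve1* probe was detected on 1 hSRY-OFF array and entered the test through hSRY-ON, the group in which it was high. The part of these cell types in the differences of the clock genes was not tested, and in bulk tissue fewer cells of a type and less RNA per cell cannot be told apart.

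Of the 15 clock gene probes, 7 were detected on all 6 arrays, 3 on some and 5 on none. This left 8 tested probes from 6 genes (*Per1*, *Per2*, *Cry2*, *Nr1d1*, *Dbp* and *Tef*). *Per1* and *Nr1d1* were higher in hSRY-ON livers, *Per1* by 4.27-fold and 4.49-fold at its probes. The *Nr1d1* difference was 1.32 on the log2 scale, or 1.03 when the 2 control arrays lacking a detected signal were set to their detection floor. *Per2*, *Cry2*, *Dbp* and *Tef* did not pass the threshold in either direction. *Arntl*, *Per3*, *Cry1* and *Nr1d2* had no tested probe. The plot of all 15 probes by array shows this split, with the dim probes crowded at the lower edge.

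**Figure D1:**
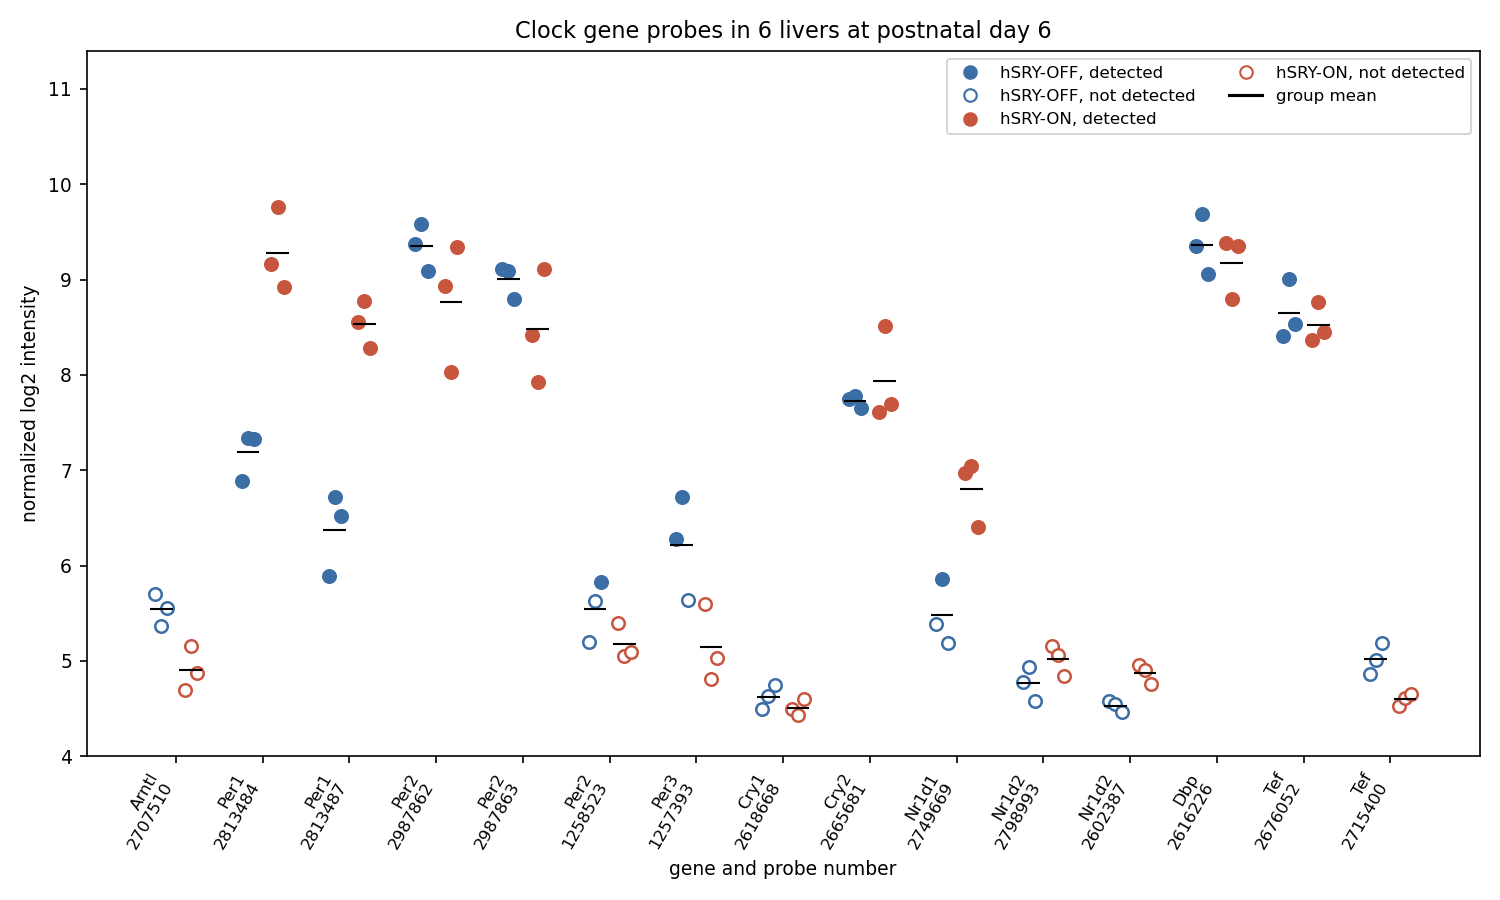
Normalized log2 intensity (vertical axis) of the 15 probes of the 10 clock genes (horizontal axis, gene and probe number) in 3 hSRY-OFF livers (blue) and 3 hSRY-ON livers (red). Each point is 1 array, filled where the probe was detected and open where it was not, and black bars are group means. Both *Per1* probes and the *Nr1d1* probe show red points above every blue point, while the open points near the lower edge belong to probes that the arrays did not detect.

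*Per1* encodes a repressor of the BMAL1 and CLOCK pair and is known for its fast induction by outside signals. At probe ILMN_2813484 its level was 6.89, 7.34 and 7.33 in hSRY-OFF replicates 1 to 3 and 9.16, 9.76 and 8.92 in hSRY-ON replicates 1 to 3. Every hSRY-ON liver was thus above every hSRY-OFF liver, with a gap between the groups wider than the spread within either. The group means were 7.19 ± 0.26 and 9.28 ± 0.44 (SD, n = 3 each), and the difference was 2.10 ± 0.24 (SE, 95% confidence interval 1.53 to 2.66, limma adjusted p = 0.00103), or 4.27-fold. At probe ILMN_2813487 the levels were 5.89, 6.72 and 6.52 against 8.55, 8.78 and 8.28, again without overlap. Its difference was 2.17 ± 0.24 (SE, 95% confidence interval 1.61 to 2.72, limma adjusted p = 0.000874), or 4.49-fold.

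The rise of *Per1* was visible in the intensities as deposited. At ILMN_2813484 they were 258, 315 and 253 in hSRY-OFF and 769, 971 and 549 in hSRY-ON, and at ILMN_2813487 they were 193, 249 and 196 against 557, 553 and 395. Both probes were detected on all 6 arrays. Ordered among the 10734 tested probes from the largest rise down, they stood at ranks 93 and 85. Their call held under all 15 alternative settings, the highest adjusted p being 0.00651 and 0.00569. Without background correction the folds fell to 2.76 and 2.38.

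RefSeq lists a pair of start sites for *Per1* (assembly GRCm38.p6), and the 250 bases before each are printed because this gene had the largest tested difference of the 10. Capitals mark an E-box (CACGTG), the element that BMAL1 and CLOCK bind, which a search of both strands found at position -166 from the first start site. No such element was found in the window of the other. The regions are chr11:69098699-69098948 and chr11:69099902-69100151, plus strand.
Per1 first start site: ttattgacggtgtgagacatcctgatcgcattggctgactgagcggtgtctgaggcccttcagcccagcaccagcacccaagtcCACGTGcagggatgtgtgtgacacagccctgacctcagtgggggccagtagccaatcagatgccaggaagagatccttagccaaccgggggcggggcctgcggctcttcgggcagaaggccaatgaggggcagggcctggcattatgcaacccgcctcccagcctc
Per1 other start site: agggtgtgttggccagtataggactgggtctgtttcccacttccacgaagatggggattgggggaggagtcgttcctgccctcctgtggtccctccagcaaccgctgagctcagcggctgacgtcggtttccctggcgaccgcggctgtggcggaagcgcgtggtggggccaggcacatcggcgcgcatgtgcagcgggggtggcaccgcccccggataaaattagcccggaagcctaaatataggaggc

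*Per2*, the partner of *Per1* in repression and the *Per* gene most tied to the clock itself, did not share the rise. At probe ILMN_2987862 its level was 9.37, 9.58 and 9.09 in hSRY-OFF and 8.93, 8.03 and 9.34 in hSRY-ON. The groups overlapped, because hSRY-ON replicate 3 lay above the lowest control while replicate 2 was the lowest of all 6. The means were 9.35 ± 0.25 and 8.77 ± 0.67 (SD, n = 3 each), and the difference of -0.58 ± 0.32 (SE, 95% confidence interval -1.33 to 0.17) did not pass the threshold (limma adjusted p = 0.203). Probe ILMN_2987863 showed the same order of hSRY-ON livers, with 9.11, 9.09 and 8.80 against 8.42, 7.92 and 9.11. Its difference was -0.52 ± 0.28 (SE, 95% confidence interval -1.19 to 0.15, limma adjusted p = 0.198). The intervals of both probes exclude a rise of the size seen for *Per1*.

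The outcome for *Per2* turned on hSRY-ON replicate 3. Without it the difference was -0.87 (limma adjusted p = 0.0501) at ILMN_2987862 and -0.83 (limma adjusted p = 0.0155) at ILMN_2987863, so that the latter then counted as lower. Without hSRY-ON replicate 2 the differences were -0.21 and -0.24. The latter also passed, at -0.65 (limma adjusted p = 0.0290), when arrays were weighted by their quality. The other *Per2* probe, ILMN_1258523, was detected on 1 hSRY-OFF array and no hSRY-ON array and was not tested, with levels of 5.20, 5.63 and 5.83 against 5.40, 5.05 and 5.09.

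*Per3*, the *Per* gene that is not needed for the rhythm, lay close to the background. Its probe ILMN_1257393 was detected on 2 of 3 hSRY-OFF arrays and on no hSRY-ON array, so it was not tested. The levels were 6.28, 6.72 and 5.64 in hSRY-OFF and 5.60, 4.81 and 5.03 in hSRY-ON. All hSRY-ON values were the lower ones, by a narrow margin between hSRY-OFF replicate 3 and hSRY-ON replicate 1. Because the probe was not above background in hSRY-ON, only a bound can be given, and *Per3* was at least 1.42-fold lower there, the dim arrays being set to the lowest signal that they still detected. That bound holds for the main processing. Without background correction the difference was -0.35, or 1.28-fold. With the filter relaxed to a detection p of 0.05, a filter that this probe passed through hSRY-OFF, its adjusted p by limma was 0.0345, and with no filter it was 0.0723. Because hSRY-OFF was the group in which it was high, the former gives no support for a fall.

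Among the windows of the 9 genes matched, that of *Per3* was the only one in which a D-box (TTATGTAA), the element bound by DBP and TEF, was found, and it held a pair of them at -205 and -158. The stretches around them are shown because *Per3* had the lowest difference of mean level among the 7 untested probes, -1.07. They lie at chr4:151044854-151044879 and chr4:151044807-151044832 (GRCm38.p6, minus strand, RefSeq), with the D-box in capitals.
Per3 distal D-box: acccgcgcgTTATGTAAggtactcgg
Per3 proximal D-box: cgcccgcggTTATGTAAcccccgccg

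*Cry1* and *Cry2* encode the cryptochromes, the main repressors of the loop. *Cry2* (ILMN_2665681) was detected on every array at 7.75, 7.78 and 7.66 in hSRY-OFF and 7.61, 8.51 and 7.69 in hSRY-ON. Apart from hSRY-ON replicate 2, all 5 livers lay within a narrow band. The means were 7.73 ± 0.066 and 7.94 ± 0.50 (SD, n = 3 each), and the difference of 0.21 ± 0.24 (SE, 95% confidence interval -0.35 to 0.77, limma adjusted p = 0.531) became -0.077 without hSRY-ON replicate 2. *Cry1* (ILMN_2618668) was not detected on any array, and its values of 4.50, 4.63 and 4.75 against 4.49, 4.44 and 4.61 were not above background.

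*Nr1d1* encodes REV-ERB alpha, the repressor of *Arntl*, and is itself a direct target of BMAL1. Its probe ILMN_2749669 gave 5.39, 5.86 and 5.19 in hSRY-OFF and 6.97, 7.04 and 6.41 in hSRY-ON. The groups did not overlap. The means were 5.48 ± 0.35 and 6.81 ± 0.35 (SD, n = 3 each) and the difference was 1.32 ± 0.23 (SE, 95% confidence interval 0.78 to 1.87, limma adjusted p = 0.00559). No exact fold is given, because 2 of the 3 hSRY-OFF arrays did not detect the probe.

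The *Nr1d1* probe was dim. It was detected on 3 hSRY-ON arrays but on 1 hSRY-OFF array, and so entered the test through the group in which it was high. With the undetected hSRY-OFF arrays set to the lowest signal they still detected, the difference was 1.03. The deposited intensities were 173, 195 and 150 against 272, 253 and 194. Before normalization hSRY-OFF replicate 2 thus lay just above hSRY-ON replicate 3, and the groups overlapped. Without background correction the difference was 0.49 and it still passed (limma adjusted p = 0.0106). The call held under all 15 alternatives, the highest adjusted p being 0.0279, without hSRY-OFF replicate 1. Except for the fit with no filter (limma adjusted p = 0.0125), these settings kept a filter that the probe passed through hSRY-ON. Holding under them does not remove that limit.

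The 250 bases before the RefSeq start site of *Nr1d1* (chr11:98775378-98775627, GRCm38.p6, minus strand) are shown because it was the other gene called higher. None of the motifs searched was found in them, which says only that these exact letters are not in this window.
Nr1d1 start site: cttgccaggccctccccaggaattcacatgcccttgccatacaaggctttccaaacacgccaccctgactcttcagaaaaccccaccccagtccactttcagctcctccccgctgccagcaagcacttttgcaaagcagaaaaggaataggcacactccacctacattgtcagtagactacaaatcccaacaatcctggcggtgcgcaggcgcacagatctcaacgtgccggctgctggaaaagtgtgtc

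*Arntl* was below detection in all 6 livers at its only probe, ILMN_2707510, and was not tested. The values were 5.70, 5.37 and 5.55 in hSRY-OFF and 4.70, 5.15 and 4.87 in hSRY-ON. All hSRY-ON values were below all hSRY-OFF values, within the range where the array does not separate a probe from background, and no fold is given. The deposited intensities were 185, 175 and 160 against 148, 158 and 140, with detection p-values of 0.0138 to 0.0263 in hSRY-OFF and 0.0877 to 0.361 in hSRY-ON. When the filter was relaxed to a detection p of 0.05, which the probe met through hSRY-OFF, limma gave an adjusted p of 0.0234, and with no filter 0.0332. With the arrays set to their detection floor the *Arntl* difference was -0.030, so these p-values give no support for a fall. *Nr1d2*, which encodes REV-ERB beta, was not detected on any array by either probe. ILMN_2602387 read 4.58, 4.55 and 4.47 against 4.96, 4.90 and 4.76, with hSRY-ON above hSRY-OFF throughout, while ILMN_2798993 read 4.78, 4.94 and 4.58 against 5.16, 5.06 and 4.85, with overlap.

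*Dbp* and *Tef* encode the output factors of the loop. *Dbp* (ILMN_2616226) was detected on every array at 9.36, 9.68 and 9.06 in hSRY-OFF and 9.38, 8.79 and 9.35 in hSRY-ON. The groups overlapped, with means of 9.37 ± 0.31 and 9.17 ± 0.33 (SD, n = 3 each) and a difference of -0.19 ± 0.22 (SE, 95% confidence interval -0.71 to 0.32, limma adjusted p = 0.536). *Tef* (ILMN_2676052) was at 8.41, 9.01 and 8.54 against 8.36, 8.77 and 8.45. It overlapped too, with a difference of -0.13 ± 0.19 (SE, 95% confidence interval -0.58 to 0.33, limma adjusted p = 0.644) that became 0.051 without hSRY-OFF replicate 2. For both genes the intervals exclude a change of 2-fold in either direction. The other *Tef* probe, ILMN_2715400, was not detected on any array, and its values of 4.86, 5.01 and 5.19 against 4.52, 4.61 and 4.66 gave an adjusted p by limma of 0.0493 with no filter. As no array detected this probe, that p-value gives no support for a fall.

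**Figure D2:**
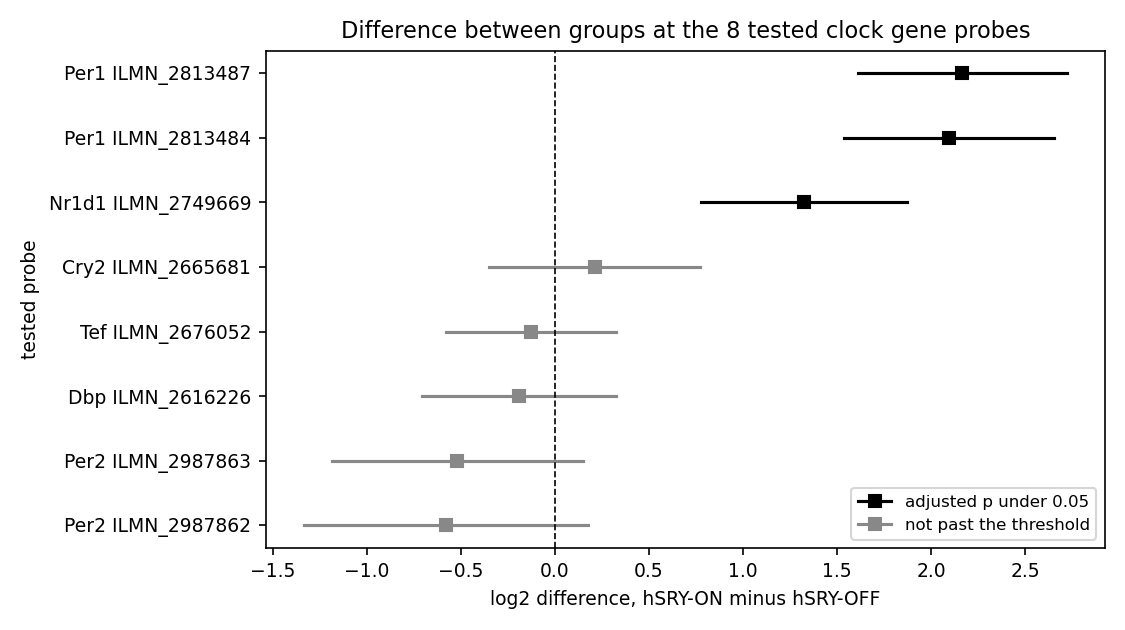
Log2 difference, hSRY-ON minus hSRY-OFF (horizontal axis), of the 8 tested clock gene probes (vertical axis). Squares are fitted differences and lines 95% confidence intervals, black where the adjusted p was under 0.05 and grey elsewhere. Both *Per1* probes, at 2.10 and 2.17, and *Nr1d1*, at 1.32, lie right of 0, and the intervals of the other 5 probes cross it.

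In all, 3 of the 8 tested probes (37.5%) were called, each of them higher, beside 33.1% of all tested probes, so the share of clock gene probes called was near the share over the whole array. None was called lower by limma, where the lowest unadjusted p of a negative difference was 0.109, and 4 differences were positive and 4 negative. The median difference of the 8 was 0.042 and the median size, regardless of sign, 0.55, beside 0.017 and 0.34 for all tested probes. All hSRY-ON values lay above all hSRY-OFF values at 3 of the 8 probes, beside 25.4% of all tested probes, and below them at none, beside 24.6%. Because *Nr1d1* entered the test through hSRY-ON, these counts describe the tested probes and not the 10 genes.

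Whether close relatives differed in their change was tested for the pairs in which both genes had a tested probe, with an exact permutation test over the 6 livers (two-sided, 2 pairs, smallest p that 3 against 3 allows 0.1). The change of *Per1* exceeded that of *Per2* by 2.68 ± 0.67 (SE), with every hSRY-ON liver beyond every hSRY-OFF liver (exact p = 0.1, adjusted 0.2), and by 2.07 to 3.15 with any 1 liver left out. The change of *Dbp* minus that of *Tef* was -0.065 ± 0.34 (SE, exact p = 0.9, adjusted 0.9), and it turned to 0.052 without hSRY-OFF replicate 1 and to 0.25 without hSRY-ON replicate 2. The design cannot reach a p of 0.05 for either pair.

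Among the hSRY-ON livers, replicate 2 stood at the end of the range for several clock genes. It had the highest level of both *Per1* probes, of *Cry2* and of *Nr1d1*, and the lowest level of both *Per2* probes and of *Dbp*. Replicate 3, the liver with the high neutrophil marker sum, had the lowest *Per1* and *Nr1d1* and the highest *Per2* of its group. Among the hSRY-OFF livers replicate 2 was highest at every tested clock gene probe, both *Per1* probes included, except *Per2* ILMN_2987863. There replicate 1 was highest, at 9.11 against 9.09 in replicate 2. With 1 time point per liver, these are values of single livers and not a phase.

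**Figure D3:**
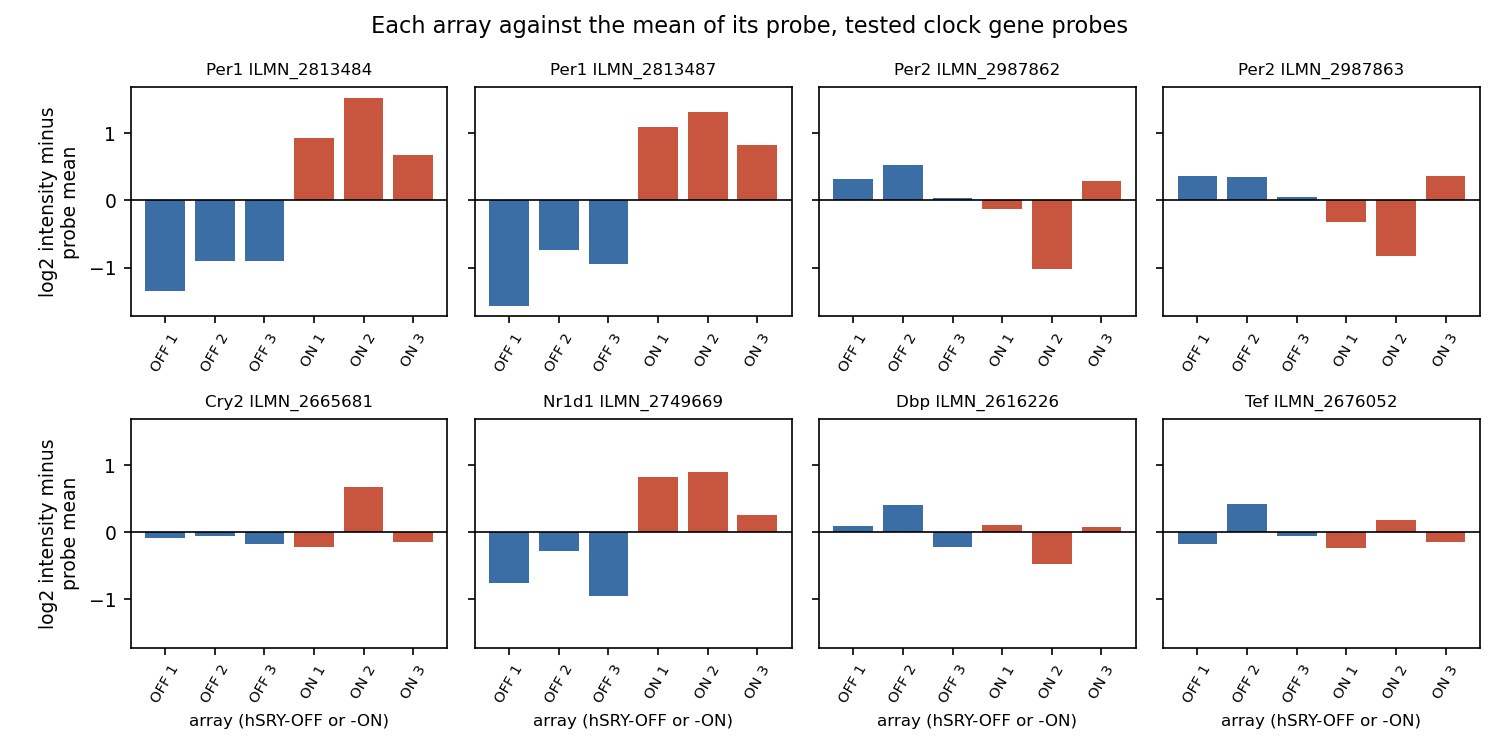
Log2 intensity of each array minus the mean of its probe over the 6 arrays (vertical axis), for the 8 tested clock gene probes (panels), with hSRY-OFF replicates 1 to 3 in blue and hSRY-ON replicates 1 to 3 in red (horizontal axis). Bars start at 0, and hSRY-ON replicate 2 has the highest bar for *Per1*, *Cry2* and *Nr1d1* and the lowest for *Per2* and *Dbp*.

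The E-box and other motifs were searched on both strands in the RefSeq windows of 300 bases, 250 before and 50 after each start site, of which 12 belonged to 9 of the 10 genes, *Per2* not being matched. The E-box was found in 4 of 12 member windows, those of *Per1*, *Cry1* and both start sites of *Tef*, beside 7.15% of 32851 windows of all genes. The D-box TTATGTAA was found in 1 of 12 (0.938% of all), and its variant TTACGTAA, the cAMP response element TGACGTCA and the glucocorticoid response element in none (0.119%, 1.79% and 0.222% of all). The ROR element, through which REV-ERB and ROR receptors act, was found in 1, that of *Arntl* at position 27 after a start site, beside 0.384% of all. Genes with an E-box in the window thus included *Per1*, which was higher, and *Tef*, which did not pass the test. The stretches around these matches are shown so that the shared core, in capitals, can be read in its setting, with *Cry1* at chr10:85185100-85185123 on the minus strand and *Tef* at chr15:81802537-81802560 and chr15:81811267-81811290 and *Arntl* at chr7:113207528-113207556 on the plus strand.
Cry1 E-box: gccggtggtCACGTGgggtgcatg
Tef E-box, first start site: ctgtggctcCACGTGctgcagctg
Tef E-box, other start site: ctggcccagCACGTGtctacatcg
Arntl ROR element: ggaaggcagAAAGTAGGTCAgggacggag

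Among the partners and modifiers of the clock proteins, a list of 22 genes of which 19 were on the array, 16 probes of 11 genes were tested, and 6 were called higher and 4 lower, 62.5% beside 33.1% of all tested probes, with a median difference of 0.26. Of the 6 higher calls, 5 came from probes of *Csnk1d* and *Csnk1e*. The casein kinases that phosphorylate PER proteins were higher. *Csnk1e* rose by 1.13 and 0.85 at its tested probes (limma adjusted p = 0.00101 and 0.0133). *Csnk1d* was at 9.70, 9.74 and 10.01 in hSRY-OFF and 10.91, 10.92 and 11.07 in hSRY-ON at probe ILMN_1231035, a rise of 1.15 (limma adjusted p = 0.00109). Its probes disagreed, since ILMN_2739965 and ILMN_3030340 rose by 1.13 and 0.67 while ILMN_3103652 gave -0.15 (limma adjusted p = 0.298) and ILMN_2746075, which entered the test through hSRY-ON and was detected there alone, has only a bound of at least 1.24-fold higher (limma adjusted p = 0.0738).

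*Ncor1*, the co-repressor that REV-ERB proteins recruit, was at 6.36, 6.32 and 6.48 in hSRY-OFF and 8.06, 8.15 and 7.77 in hSRY-ON, a rise of 1.61 (limma adjusted p = 0.000352). *Hdac3*, the deacetylase of the same complex, went the other way, falling by 0.43 (limma adjusted p = 0.0300), a call that was lost under 7 of the 15 alternatives. *Rora*, a ROR receptor, gave 0.22 (limma adjusted p = 0.308). *Btrc*, a subunit of the ligase that marks PER proteins for degradation, fell by 0.66 (limma adjusted p = 0.00501), and *Timeless*, a DNA replication factor linked to the clock, fell by 0.76 (limma adjusted p = 0.00791). *Clock*, the partner of BMAL1, was nearly level at 8.87, 8.76 and 8.59 against 9.03, 8.58 and 8.83, with a difference of 0.072 (limma adjusted p = 0.751). *Ciart*, a clock repressor named after its values were seen, was detected on no hSRY-OFF array and 2 hSRY-ON arrays at ILMN_3102736, was not tested, and its bound was a level at least 1.22-fold higher in the hSRY-ON livers.

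Of 15 liver genes known to be under clock control, 14 were on the array, and 19 probes of 10 genes were tested. With 5 called higher and 1 lower, 31.6% beside 33.1% of all tested probes, the share called was near that of the whole array. The median difference was 1.04, beside 0.017 for all tested probes. That median is the value of *Cyp2a5* probe ILMN_1229267, which was not called (limma adjusted p = 0.108), and several genes entered the list with more than 1 probe. All 3 probes of *Insig2*, which holds back the activation of sterol synthesis and is a target of REV-ERB alpha, rose, by 2.49, 1.29 and 1.48 (limma adjusted p = 0.000250, 0.00146 and 0.00506). *Alas1*, the rate-limiting enzyme of heme synthesis in liver, was at 11.16, 11.15 and 11.18 against 12.30, 12.35 and 12.32, a rise of 1.16 (limma adjusted p = 0.000431). *Usp2*, a ubiquitin protease, was detected at ILMN_1240264 in hSRY-ON alone, where its level was at least 1.28-fold higher (limma adjusted p = 0.00793), and as the probe entered the test only through the group in which it was high, its call gives no support beyond that bound. *Nr1i3*, the nuclear receptor CAR, was at 9.59, 9.92 and 10.14 against 8.09, 8.72 and 8.67, a fall by 1.39 (limma adjusted p = 0.00347).

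The clock-controlled list depended on single livers. Without hSRY-ON replicate 3, 13 probes were called higher, the additional ones belonging to *Por*, *Cyp2a5*, *Cyp2b10* and *Rgs16*, and without hSRY-ON replicate 2, 4 were called lower, the additional ones belonging to *Upp2*. *Rgs16*, a G protein regulator named after its values were seen, was at 8.37, 9.60 and 8.07 in hSRY-OFF, at 11.99 and 12.23 in hSRY-ON replicates 1 and 2 and at 7.87 in hSRY-ON replicate 3. Its difference was 2.02 (limma adjusted p = 0.197) with that liver and 3.43 (limma adjusted p = 0.00177) without it.

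*Per1* is also listed among the genes that glucocorticoids and cAMP induce, and both groups were counted beside it. Of 10 further glucocorticoid-responsive genes, 11 probes of 8 genes were tested, with 7 called higher, none lower (lowest unadjusted p of a negative difference 0.110 in limma) and a median difference of 1.22. *Zbtb16* had no matching probe, and *Tat* was detected on no array of either group and was not tested. The share called was 63.6%, beside 33.1% of all tested probes, and 3 of the 7 were probes of *Cdkn1a*. With any 1 array left out, 5 to 9 were called higher and 0 to 1 lower. *Cdkn1a*, the cell cycle inhibitor p21, rose at its 3 probes by 1.71, 1.84 and 1.89 (limma adjusted p = 0.000186, 0.000259 and 0.000687). *Klf9*, a transcription factor that oscillates with the clock, was at 7.64, 8.28 and 8.10 against 10.23, 10.78 and 9.34, a rise of 2.11 (limma adjusted p = 0.00471). *Pdk4*, which turns off pyruvate oxidation in fasting, was at 9.02, 9.54 and 8.76 against 11.69, 12.19 and 10.53, a rise of 2.36 (limma adjusted p = 0.00545). In both genes hSRY-ON replicate 2 was highest and replicate 3 lowest of its group, the order that *Per1* showed. The first principal component and both probes of *Tsc22d3*, which was not called, had the same order, so it is not particular to genes that rose. A shared inducer was not tested. *Dusp1*, a phosphatase of MAP kinases, and *Mt2*, a metallothionein, rose by 1.22 and 1.04 (limma adjusted p = 0.0308 and 0.0358), calls that were each lost under 6 of 15 alternatives.

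Other glucocorticoid-responsive genes did not pass. *Tsc22d3*, known as GILZ, gave -0.49 and -0.16 at its probes (limma adjusted p = 0.199 and 0.648), the former passing as lower without hSRY-ON replicate 2 (-0.75, limma adjusted p = 0.0388). *Fkbp5*, a co-chaperone of the glucocorticoid receptor, gave 0.37 (limma adjusted p = 0.307) and passed as higher without hSRY-ON replicate 3 (0.66, limma adjusted p = 0.0197). *Sgk1*, a kinase, gave 0.92 (limma adjusted p = 0.0773) and passed as higher without hSRY-ON replicate 3 (1.25, limma adjusted p = 0.0148), with array weights (0.99, limma adjusted p = 0.0160) and with the replicate number as a block (limma adjusted p = 0.0314). Of 11 cAMP-responsive and immediate early genes, 8 probes of 6 genes were tested with a median of 0.24, 5 differences being positive and 3 negative. Only 1 was called (12.5%, beside 33.1% of all tested probes). It was *Ppargc1a*, a co-activator of fasting metabolism, which rose by 1.70 (limma adjusted p = 0.0448) and was lost under 9 of 15 alternatives. *Jun* and *Junb* gave 0.97 and 1.06 (limma adjusted p = 0.0673 and 0.0722). *Fos*, named after its values were seen, was detected on 2 hSRY-ON arrays alone and not tested, with a bound of at least 1.37-fold higher in hSRY-ON. The plot of the lists sets these differences beside those of the clock genes.

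**Figure D4:**
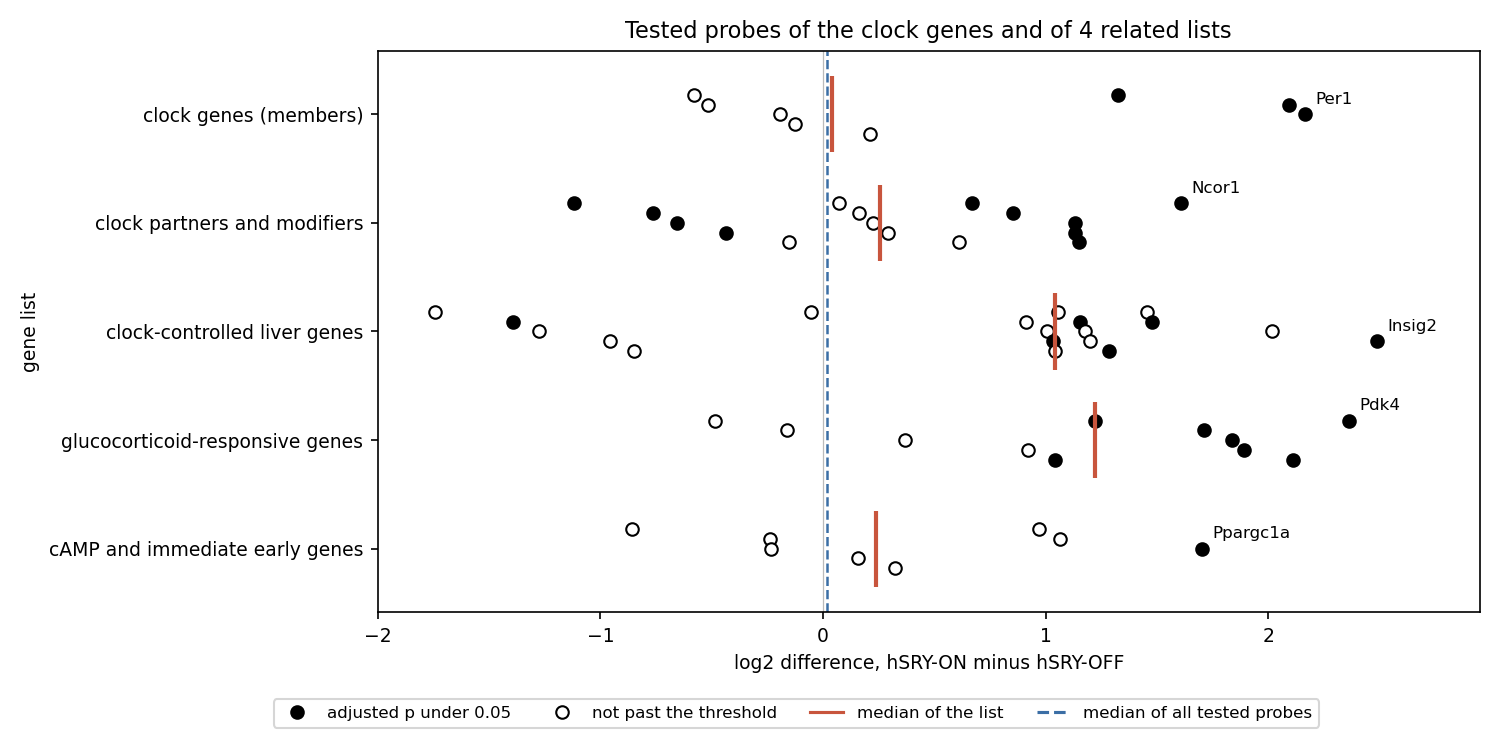
Log2 difference, hSRY-ON minus hSRY-OFF (horizontal axis), of each tested probe of the clock genes and of 4 related gene lists (vertical axis), filled where the adjusted p was under 0.05. Red bars are list medians, from 0.042 for the clock genes to 1.22 for the glucocorticoid-responsive genes, and the dashed line is the median of all tested probes, 0.017.

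The 5 probes whose levels over the 6 livers were most like those of *Per1* (ILMN_2813484) were found by the Euclidean distance between log2 levels centred on each probe's own mean, where the median distance over all tested probes was 2.69. They belonged to *Timp3*, an inhibitor of matrix proteases (distance 0.411, difference between groups 2.16), *Serpina3k*, a serpin (0.461, 2.02), *Slc7a2*, a transporter of cationic amino acids (0.461, 1.98), *Lyve1*, a receptor of sinusoidal endothelium that also stands among the endothelial markers (0.472, 1.94), and *Porcn*, an acyltransferase for Wnt proteins (0.477, 2.12). The *Lyve1* probe was detected on 1 hSRY-OFF array and 3 hSRY-ON arrays, and so entered the test through the group in which it was high. Its difference carries the same limit as that of *Nr1d1*. The other *Per1* probe lay at a distance of 0.411. This likeness is a description over 6 livers in which the difference between the groups is the main component.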

How the data were processed

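Liver RNA of 3 hSRY-ON and 3 hSRY-OFF pups, described as biological triplicates, was run by the authors on Illumina MouseRef-8 v2.0 BeadChips. The deposited table gave for each array the mean bead intensity, neither background-subtracted nor normalized, and the detection p-value deposited with it, the rank of a probe among negative control beads. The study names TCC, a count tool, and the submitters' processing notes name limma; scanner settings and genome build were not given in the sources used here. Intensities are not counts, so limma was used instead of a count test. Background was inferred from the detection p-values and removed (nec of limma 3.58.1 under R 4.3.3, offset 16), and values were then quantile normalized and taken to log2. The offset shrinks differences of dim probes. Group differences were fitted with lmFit and eBayes without covariates, with two-sided p-values, Benjamini-Hochberg adjustment across tested probes and a threshold of 0.05, and the number of arrays limits the precision.

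Groups and replicates follow the labels. Same-numbered arrays deviated together only weakly (r = 0.025, 0.096 and 0.052), so numbers were not used as pairs. No 2 arrays were identical. Each probe of a gene was tested on its own, and older symbols were matched through RefSeq (14307 of 18138 symbols current, 2927 older names, 904 unmatched). A bound, written "at least N-fold", divides the mean of the brighter group by the mean, over arrays of the undetected group, of the higher of the lowest detected signal and the probe's own. Bounds hold for the main processing only, and alternatives gave smaller differences for *Per3*, *Usp2* and *Csnk1d* ILMN_2746075. Clock genes, gene lists, tests and motifs were chosen with earlier results of these data known. All clock genes were named, and of the other lists at most 8 genes past the threshold by smallest adjusted p. The fit was tested on simulated data. Alternatives were no background correction, normexp or nec with an offset of 50, median scaling, no filter, a detection p of 0.05, an intensity trend with a robust prior, array weights, leaving out each array and a replicate block. Other organs were not analysed here, and 1 result of the list of clock partners is not reported here.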

Additional observations from a re-analysis of the deposited data

How the results depend on the processing

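Under the 15 alternatives *Per1* and *Nr1d1* stayed past the threshold and higher, and the count of clock gene probes called higher was 3 throughout. Except in the fit with no filter, *Nr1d1* entered each of these through hSRY-ON, the group in which it was high. The count called lower went from 0 to 2 with no filter (*Arntl* and a *Tef* probe), to 2 with a detection p of 0.05 (*Arntl* and *Per3*), to 1 with array weights and to 0 to 1 with any 1 array left out; probes that enter only under a looser filter rest on values near or below detection. The *Per2* probe ILMN_2987863 is the lower call with array weights and without hSRY-ON replicate 3. Among the differences of single clock gene probes, 2 reversed under an alternative. These were *Tef* ILMN_2676052 (0.051 without hSRY-OFF replicate 2, from -0.25 to 0.051 with 1 array left out) and *Cry2* (-0.077 without hSRY-ON replicate 2, from -0.077 to 0.38). The *Dbp* minus *Tef* difference reversed to 0.052 without hSRY-OFF replicate 1 and to 0.25 without hSRY-ON replicate 2, over a range of -0.25 to 0.25 with 1 array left out. Over all tested probes, leaving out 1 array gave 898 to 1943 higher and 1145 to 2124 lower calls. Clock-controlled liver genes had 2 lower calls under median scaling, 11 higher and 3 lower with array weights, and 5 to 13 higher and 1 to 4 lower with 1 array left out. Calls among glucocorticoid-responsive genes numbered 5 to 9 higher and 0 to 1 lower with 1 array left out. For cAMP and immediate early genes, higher calls numbered 0 without background correction, 2 with a detection p of 0.05, 0 with an intensity trend and robust prior, 3 with array weights and 0 to 2 with 1 array left out, and lower calls 0 to 1 with 1 array left out and 1 with the replicate block (*Egr1*). The cause was not tested. With the replicate block no call among the clock genes changed; the block ended the calls of *Hdac3* (limma adjusted p = 0.0565) and *Ppargc1a* (limma adjusted p = 0.0574) and added higher calls for *Sgk1* (limma adjusted p = 0.0314), *Junb* (limma adjusted p = 0.0216) and *Por* ILMN_2629266 (limma adjusted p = 0.0320). The median of all tested probes was 0.017, and -0.038 under median scaling. Signal over background limits what can be said of the 7 untested probes.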
